A study of Homo sapiens with 12 samples.

Results

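The genes described here are 10 erythroid transcription regulators, GATA1, GATA2, KLF1, TAL1, LMO2, NFE2, GFI1B, ZFPM1, MYB and BCL11A. They were taken by name, and not by any measured value, from a table of gene counts in leukemia cells. Earlier results of these data were known when they were chosen. All 10 were among the 60671 Ensembl genes of the table and among the 18626 genes with enough counts to be tested.

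The study sequenced RNA from 3 related human lines. K562 is an erythroleukemia line derived from chronic myeloid leukemia, and here it is the unedited parent. K/VP.5 is a clone selected from K562 for resistance to etoposide, a drug that traps the enzyme encoded by TOP2A on DNA. K562/SSedit-2 (SSedit-2 below) is a clone obtained from K562 with CRISPR/Cas9 and homology-directed repair, in which 2 of 3 TOP2A alleles carry an altered 5′ splice site between exon 19 and intron 19. Each line was grown in DMEM with 10% FBS, harvested in mid-log phase and sequenced as 4 samples. K/VP.5 and SSedit-2 are each 1 clone, so a difference of either from K562 cannot be told apart from a difference that belongs to that clone. Whether the 4 samples of a line were separate cultures is not stated, and the p-values measure only the spread between these samples.

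In red cell development, GATA2 is the GATA factor of progenitors, and it gives way to GATA1 as cells commit to the erythroid path. GATA1 binds DNA with its cofactor FOG1, the product of ZFPM1, and in a larger complex with TAL1, LMO2, LDB1 and an E protein. KLF1 and NF-E2 act on globin genes and other genes of the red cell, GFI1B and BCL11A repress, and MYB keeps progenitors dividing.

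Total counts per sample ranged over 36883518 to 43648830 in K562, 32355417 to 37619488 in SSedit-2 and 28981722 to 39944440 in K/VP.5. Levels are in CPM, which are counts scaled to library size with TMM, and 3 counts correspond to 0.0691 to 0.102 CPM. Means are given with the SD over 4 samples. Lines were compared in a single edgeR fit of all 12 samples, where a gene is called at 10% false discovery rate, and differences are log2 fold changes of the first line over the second. The comparisons of K/VP.5 and of SSedit-2 with K562 share the same 4 K562 samples. K562 replicate 1 stood apart from the other K562 samples, with a root mean square log2 deviation of 0.347 from them against 0.156 to 0.180 for the others, so counts are given with and without it. In bulk RNA, fewer cells that express a gene cannot be told apart from less of its RNA in each cell.

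Per kilobase of exon, GATA1 had the highest level of the 10 in every line, at 249 CPM per kb in K562, 250.02 in SSedit-2 and 177 in K/VP.5. The length used is that of all annotated exons of a gene merged, from 1553 bases for GATA1 to 24514 for BCL11A. The order of genes within a line depends on these lengths, which need not be those of the transcripts expressed. In K562, NFE2 (152 CPM per kb) and KLF1 (130.1) followed with overlapping samples. LMO2 (80.6), GATA2 (72.2) and MYB (43.8) came next, each clear of its neighbours. TAL1 (19.0) overlapped ZFPM1 (15.0), ZFPM1 overlapped GFI1B (11.7), and BCL11A was far lower at 0.00313. SSedit-2 had the same order, from NFE2 (158 CPM per kb) and KLF1 (131) down to ZFPM1 (13.5), GFI1B (11.5) and BCL11A (0.00295), and there ZFPM1 and GFI1B alone overlapped. In K/VP.5 the order differed. KLF1 (125 CPM per kb) and GATA2 (88.0) stood above NFE2 (81.0), whose samples overlapped those of GATA2, and TAL1 (29.9) stood beside MYB (28.1), again with overlap.

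**Figure D1:**
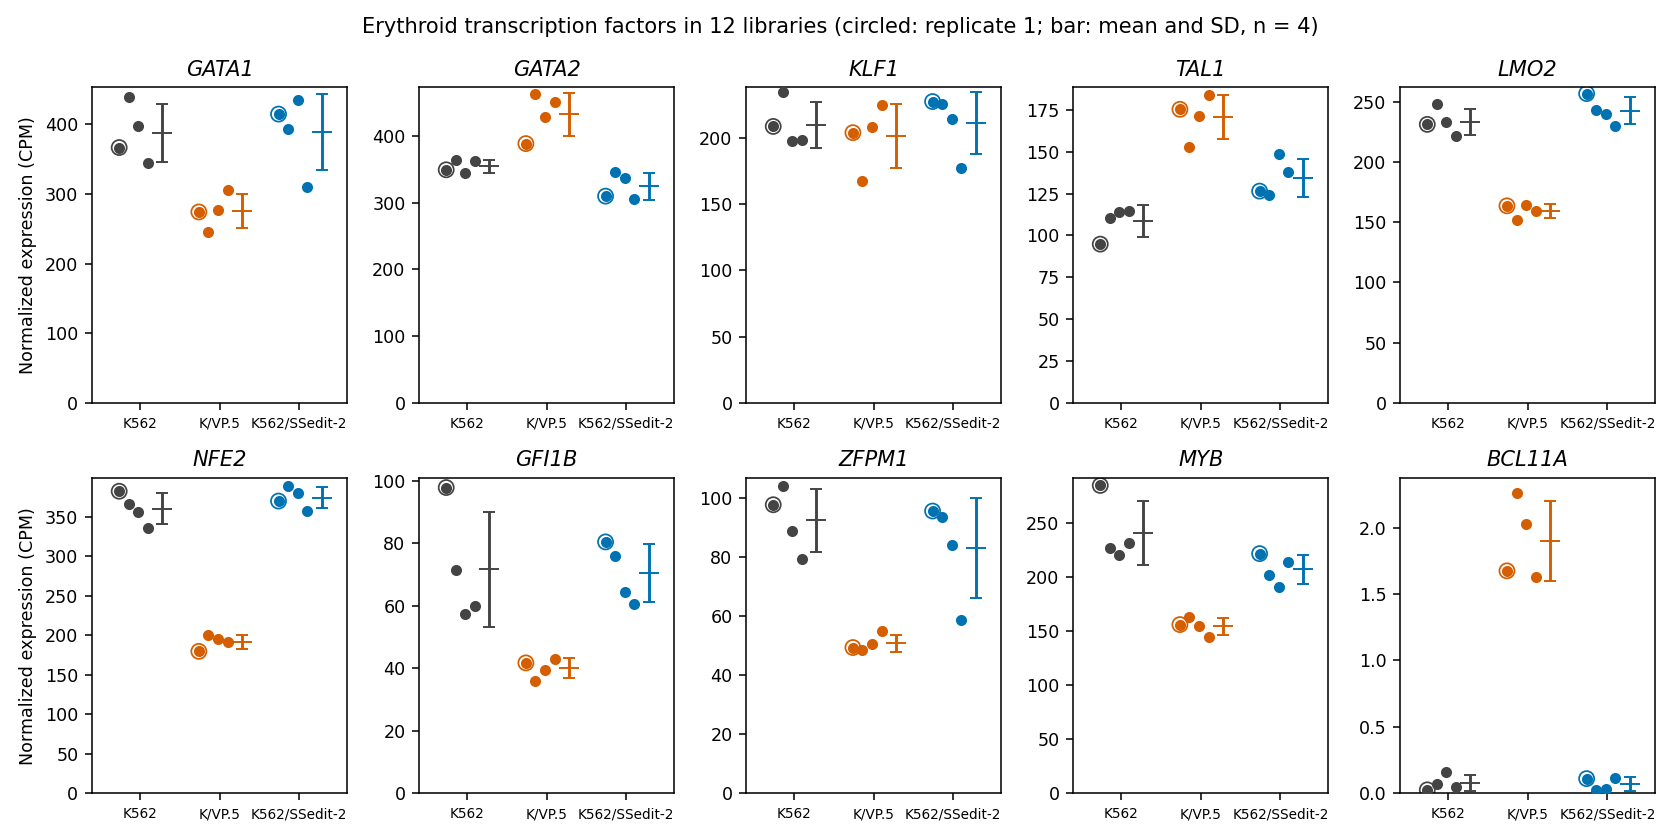
CPM of each of the 10 genes (vertical axis, from 0) in the 4 samples of each line, with points for samples, circles around replicate 1 and bars for the mean and SD. NFE2, LMO2, GFI1B, ZFPM1, MYB and GATA1 have their lowest samples in K/VP.5, while GATA2, TAL1 and BCL11A have their highest there.

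K/VP.5 against K562 asks what differs in the line selected for resistance. The erythroid regulators moved in both directions, with NFE2, ZFPM1, GFI1B, MYB, LMO2 and GATA1 lower in K/VP.5 and TAL1 and GATA2 higher, while KLF1 did not pass the test. Of the 9 genes other than BCL11A, 2 were thus called higher and 6 lower, where 26.2% of all tested genes were called higher and 26.1% lower. Their median log2 fold change was -0.55, against 0.0067 over all tested genes. The largest of the 9 differences, -0.91 for NFE2, was short of 2-fold, a size at which 8.98% of tested genes were called higher and 6.66% lower. Without K562 replicate 1 the counts were again 2 and 6, with a median of -0.57, and with replicate numbers as blocks 2 and 6. BCL11A is kept out of these counts because it reached the testing threshold through its K/VP.5 samples alone. In all 8 genes called, the 4 samples of one line lay beyond the 4 of the other (exact permutation test on both sides, p = 0.0286, the least that 4 against 4 allows). The calls were made on the same samples, so this separation is no separate evidence. Its share among all tested genes was not counted.

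SSedit-2 against K562 asks what differs after the splice site edit. Of the 9 genes, TAL1 was called higher and 8 did not pass, where 4.86% of all tested genes were called higher and 7.79% lower. Their median log2 fold change was 0.0045, against -0.013 over all tested genes, and 0.0092 without K562 replicate 1, where TAL1 was again the 1 gene called and 9.56% of all genes were higher and 9.94% lower. With replicate numbers as blocks, which pairs samples of the same number, MYB was called lower as well. The 9 values lay between -0.22 for MYB and 0.31 for TAL1, all short of 2-fold, where 0.805% of tested genes were called higher and 1.26% lower.

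The 2 derived lines were also set against each other. SSedit-2 had more NFE2, GFI1B, ZFPM1, LMO2, GATA1 and MYB than K/VP.5 and less GATA2 and TAL1, which makes 6 of 9 called higher and 2 lower. Of all tested genes, 26.2% were called higher and 27.8% lower in this comparison, and 6.20% and 9.62% at 2-fold. The median of the 9 log2 fold changes was 0.50, against -0.013 over all tested genes, and 0.52 without K562 replicate 1 and 0.49 with the block.

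The regulators are set beside lists of their partners, relatives and targets. As with BCL11A, a list gene that reached testing through the samples of 1 line alone is left out of the list counts. By the same rule 16948 of all tested genes remain, of which 24.6% and 27.4% were called higher and lower in K/VP.5, and 5.05% and 8.14% in SSedit-2, each against K562.

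**Figure D2:**
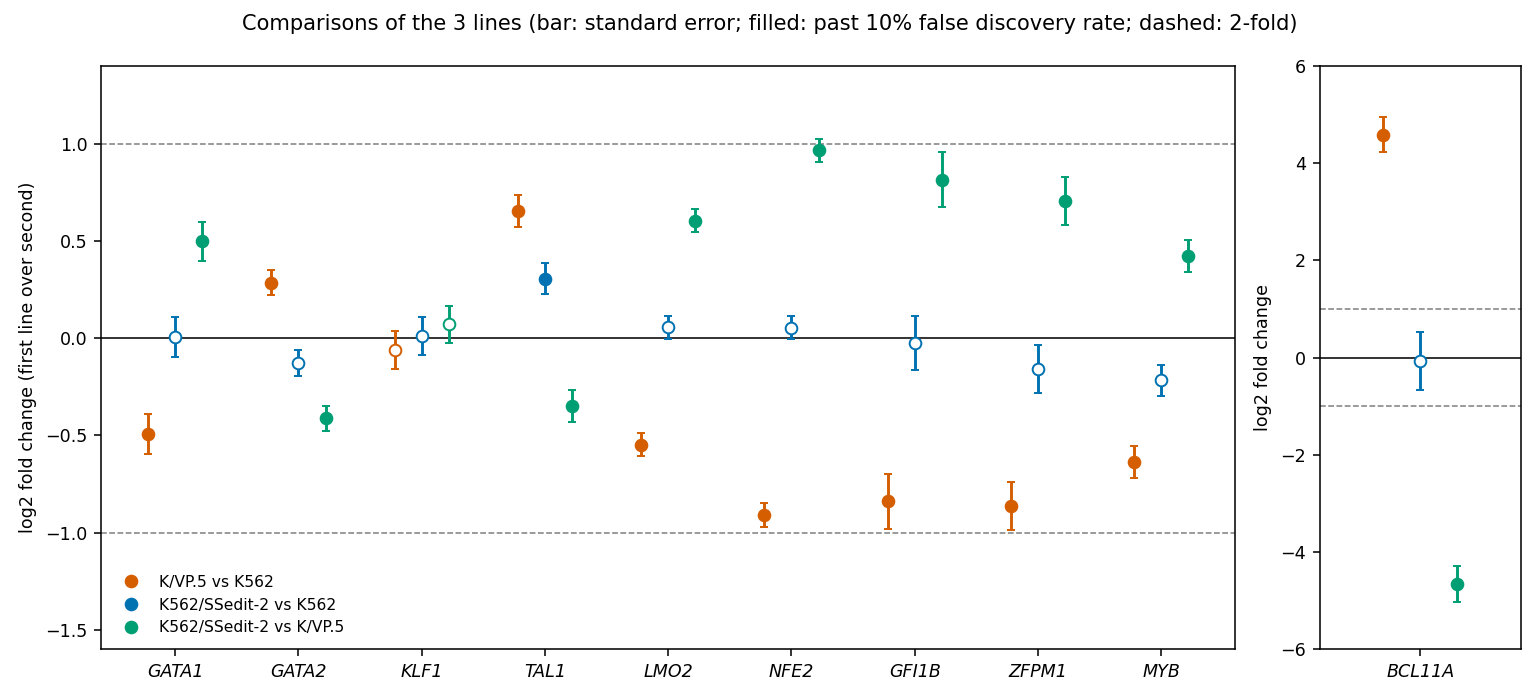
Log2 fold change of each gene (vertical axis) in the 3 comparisons, with bars for the standard error and filled points for genes past 10% false discovery rate. In SSedit-2 against K562 the point of TAL1 is filled, whereas in the comparisons with K/VP.5 all points but those of KLF1 are filled. BCL11A has its own axis, and its filled points are not counted, since it reached testing through K/VP.5 alone.

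The promoters of the regulators were searched for motifs that the regulators read. Promoter windows of 250 bases before to 50 after a start were found for 8 of the 10 genes, 15 windows in all, in RefSeq sequence of GRCh38.p14. No window was found for LMO2 and NFE2. Both strands were searched, and no matches overlapped. The GATA motif GATAA was in 3 of the 15 windows, from KLF1, TAL1 and GFI1B, and in 22.7% of all 35116 promoters. The KLF motif CACCC was in 10 of the 15 and in 59.9% of all promoters, the E-box CAGNTG of TAL1 with an E protein in 5 and 49.9%, and the NF-E2 motif TGAGTCA in 0 and 4.95%. BCL11A alone has 5 of the windows. The windows of GATA1, KLF1 and TAL1 are shown because these are the master regulator, the 1 gene of the 9 not called in either comparison with K562, and the 1 called in both. Capitals mark the motif GATAA or its reverse complement TTATC, and likewise the motif CACCC or its reverse complement, which is GGGTG. A match is a stretch of letters and does not show that a factor binds there. The windows lie at chrX:48786340-48786639 on the plus strand, chr19:12887152-12887451 on the minus strand and chr1:47232286-47232585 on the minus strand.
GATA1: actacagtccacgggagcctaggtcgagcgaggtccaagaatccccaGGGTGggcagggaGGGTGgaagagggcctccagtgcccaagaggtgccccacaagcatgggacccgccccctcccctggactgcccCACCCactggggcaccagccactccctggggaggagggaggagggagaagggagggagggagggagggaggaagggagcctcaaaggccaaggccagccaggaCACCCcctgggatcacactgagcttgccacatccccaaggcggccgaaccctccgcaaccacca
KLF1: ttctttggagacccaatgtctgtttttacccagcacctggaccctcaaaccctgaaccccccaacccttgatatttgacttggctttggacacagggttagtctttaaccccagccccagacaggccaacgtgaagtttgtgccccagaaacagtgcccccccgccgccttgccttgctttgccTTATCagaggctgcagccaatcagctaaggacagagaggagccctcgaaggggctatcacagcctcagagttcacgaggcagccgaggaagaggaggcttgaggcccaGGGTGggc
TAL1: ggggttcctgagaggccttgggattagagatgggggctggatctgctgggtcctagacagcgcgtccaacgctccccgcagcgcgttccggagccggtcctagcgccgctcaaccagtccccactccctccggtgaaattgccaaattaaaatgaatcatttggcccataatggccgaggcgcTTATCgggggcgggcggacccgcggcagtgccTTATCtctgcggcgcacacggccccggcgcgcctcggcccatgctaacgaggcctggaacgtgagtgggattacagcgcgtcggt
The GATA1 window has 4 CACCC and no GATAA, that of KLF1 has 1 of each, and that of TAL1 has 2 GATAA and no CACCC. TAL1 has a 2nd window, not shown, with 1 CACCC and no GATAA.

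GATA1 (ENSG00000102145, chromosome X from 48786540 to 48794311 in GRCh38) encodes the zinc finger factor at the centre of the erythroid program. Its level in samples 1 to 4 was 366, 439.6, 398 and 345 CPM in K562, 414, 393, 435 and 310.3 in SSedit-2 and 274, 245, 276 and 305 in K/VP.5. The K/VP.5 samples were all below those of both other lines, and the ranges of K562 and SSedit-2 overlapped. The log2 fold change was -0.49 (SE 0.102, edgeR adjusted p = 0.000801) in K/VP.5 against K562 and 0.0045 (SE 0.102, edgeR adjusted p = 0.989) in SSedit-2 against K562. GATA2 (ENSG00000179348, chromosome 3 from 128479427 to 128493201) measured 349, 364, 344 and 362 CPM in K562, 309.9, 346, 338 and 305 in SSedit-2 and 389, 463, 428 and 451 in K/VP.5. Here K/VP.5 was the high line, with each of its samples above every sample of the other lines. K/VP.5 exceeded K562 (log2 fold change 0.29, SE 0.0659, edgeR adjusted p = 0.00200), and SSedit-2 was lower than K/VP.5 (-0.41, SE 0.0660, edgeR adjusted p = 6.93e-05). The GATA2 to GATA1 ratio of levels per kilobase, a quantity chosen after the values were seen, was 0.301, 0.261, 0.274 and 0.332 in K562, 0.236, 0.278, 0.245 and 0.311 in SSedit-2 and 0.448, 0.597, 0.489 and 0.467 in K/VP.5. The ratio was high in all 4 K/VP.5 samples, with no overlap with the other lines.

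ZFPM1 (ENSG00000179588, chromosome 16 from 88453280 to 88537031) encodes FOG1, which binds the GATA factors and not DNA. It measured 97.8, 104, 89.0 and 79.6 CPM in K562, 95.7, 93.5, 84.1 and 58.8 in SSedit-2 and 49.4, 48.6, 50.6 and 55.1 in K/VP.5. All K/VP.5 samples were low, below the range of both other lines, and SSedit-2 replicate 4 was the lowest outside K/VP.5. ZFPM1 was lower in K/VP.5 than in the parent (log2 fold change -0.86, SE 0.125, edgeR adjusted p = 2.62e-05) and higher in SSedit-2 than in K/VP.5 (0.71, SE 0.125, edgeR adjusted p = 0.000183). FOG1 is known to recruit the NuRD complex of chromatin remodelers and deacetylases. Of 13 NuRD subunit genes tested, 1 was higher and 6 lower in K/VP.5, against 24.6% and 27.4% of all genes. Their median was -0.079, and the counts were 1 to 2 higher and 5 to 6 lower over the 21 alternatives. The deacetylase gene HDAC2 fell from 219 ± 5.15 CPM to 161 ± 11.6 and the remodeler gene CHD4 from 48.3 ± 4.38 to 39.3 ± 1.34, whereas CHD3 rose from 140.4 ± 19.8 to 179 ± 17.8. Their log2 fold changes were -0.44 (SE 0.0783, edgeR adjusted p = 0.000200), -0.30 (SE 0.0713, edgeR adjusted p = 0.00256) and 0.35 (SE 0.101, edgeR adjusted p = 0.00868).

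Among the paralogs of the members, GATA5 and GATA6 were higher in K/VP.5 and GATA3 was lower, at 0.109 ± 0.0536 CPM against 0.796 ± 0.261 in K562 (log2 fold change -2.79, SE 0.402, edgeR adjusted p = 2.52e-05). GATA6, a factor of endoderm and heart, measured 0.687, 0.414, 0.457 and 0.340 CPM in K562, 0.586, 0.429, 0.438 and 0.537 in SSedit-2 and 6.42, 5.29, 4.37 and 6.10 in K/VP.5. The K/VP.5 samples stood far above the rest, and the log2 fold change against K562 was 3.55 (SE 0.208, edgeR adjusted p = 6.45e-10). GATA4, another factor of the heart, had 1, 2, 0 and 1 counts in K562 and 2, 2, 1 and 0 in SSedit-2, against 70, 47, 49 and 51 in K/VP.5, where its level was 1.54 ± 0.243 CPM. These levels are small beside those of GATA1 and GATA2. Per kilobase, GATA6 had 1.46 CPM per kb in K/VP.5 against 177 for GATA1. Of 7 paralogs counted of 12 listed, 4 were higher and 1 lower in K/VP.5, against 24.6% and 27.4% of all genes, and the counts were 3 to 5 higher and 0 to 1 lower over the 21 alternatives. GATA4 and TAL2 are not among the 7, since they reached testing through K/VP.5 alone.

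TAL1 (ENSG00000162367, chromosome 1 from 47216290 to 47232225) encodes the basic helix-loop-helix factor that pairs with E proteins in the GATA1 complex. Its samples measured 94.8, 110.3, 114 and 115 CPM in K562, 126, 124, 149 and 138 in SSedit-2 and 175, 153, 171 and 184 in K/VP.5. The 3 lines did not overlap, with K/VP.5 highest, K562 lowest and SSedit-2 between them. For TAL1 the log2 fold change was 0.65 (SE 0.0815, edgeR adjusted p = 5.30e-06) in K/VP.5 and 0.31 (SE 0.0814, edgeR adjusted p = 0.0297) in SSedit-2, each against K562. K562 replicate 1 was the lowest sample of all, and without it the difference of SSedit-2 was 0.25 (edgeR adjusted p = 0.0326). That call depended on SSedit-2 replicate 3, the highest sample of its line, since the edgeR adjusted p was 0.104 without it, the highest of a range that began at 0.0127. With replicate numbers as blocks the edgeR adjusted p was 0.0128.

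LMO2 (ENSG00000135363, chromosome 11 from 33858576 to 33892076) encodes the LIM protein that bridges TAL1 and GATA1 and binds LDB1. It measured 231, 248, 233 and 222 CPM in K562, 257, 243, 240.2 and 230.1 in SSedit-2 and 164, 152, 164 and 159 in K/VP.5. The K/VP.5 samples were low and tightly grouped, and the other lines overlapped each other. The log2 fold change was -0.55 (SE 0.0590, edgeR adjusted p = 1.02e-06) against K562, and 0.056 (SE 0.0587, edgeR adjusted p = 0.639) for SSedit-2. LDB1 itself, which dimerizes to hold distant enhancers and promoters together, measured 353, 326, 321 and 327 CPM in K562, 350.2, 320.1, 313 and 299 in SSedit-2 and 184, 174, 184 and 192 in K/VP.5, again with K/VP.5 low and apart. It was lower in K/VP.5 (log2 fold change -0.86, SE 0.0629, edgeR adjusted p = 1.09e-08). LYL1, the closest relative of TAL1, went the opposite way from TAL1 in K/VP.5, with 208 ± 17.5 CPM in K562 and 116 ± 10.3 in K/VP.5, a log2 fold change of -0.84 (SE 0.0936, edgeR adjusted p = 1.54e-06). The E protein genes TCF3 and TCF4 were higher in K/VP.5, with log2 fold changes of 0.22 (SE 0.0631) and 0.34 (SE 0.104), and TCF12, also an E protein gene, was lower (log2 fold change -0.52, SE 0.127, edgeR adjusted p = 0.00309). Of 11 complex partners tested of 12 listed, 2 were higher and 6 lower in K/VP.5, against 24.6% and 27.4% of all genes, with a median of -0.18, and the counts were 2 to 3 higher and 4 to 6 lower over the 21 alternatives. In SSedit-2 against K562 their median was -0.15. There 3 were lower and 8 did not pass, against 5.05% higher and 8.14% lower of all genes. That count was not stable, at 0 to 2 higher and 0 to 4 lower over the 21 alternatives.

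The ID genes encode inhibitors that bind E proteins and keep them from DNA. ID1 measured 154, 149, 128 and 113 CPM in K562, 103, 110.2, 112 and 85.5 in SSedit-2 and 46.3, 46.2, 51.3 and 47.2 in K/VP.5. All K/VP.5 samples were low, and those of SSedit-2 lay below K562 and above K/VP.5. Its log2 fold change was -1.51 (SE 0.102, edgeR adjusted p = 3.84e-09) in K/VP.5 and -0.41 (SE 0.0995, edgeR adjusted p = 0.0192) in SSedit-2. ID3 measured 54.1 ± 7.56 CPM in K562, 41.1 ± 4.13 in SSedit-2 and 10.8 ± 2.02 in K/VP.5, with a log2 fold change of -2.32 (SE 0.135, edgeR adjusted p = 5.71e-10) in K/VP.5. The 3 ID genes tested of 4 listed were all called lower in K/VP.5 than in parental K562, against 27.4% of all genes. ID1 and ID3 passed 2-fold. ID2 was the one with overlapping samples, and without K562 replicate 1 the number called lower was 2. In SSedit-2 against K562, 2 of the 3 were called lower, against 8.14% of all genes, and 1 to 2 over the 21 alternatives.

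**Figure D3:**
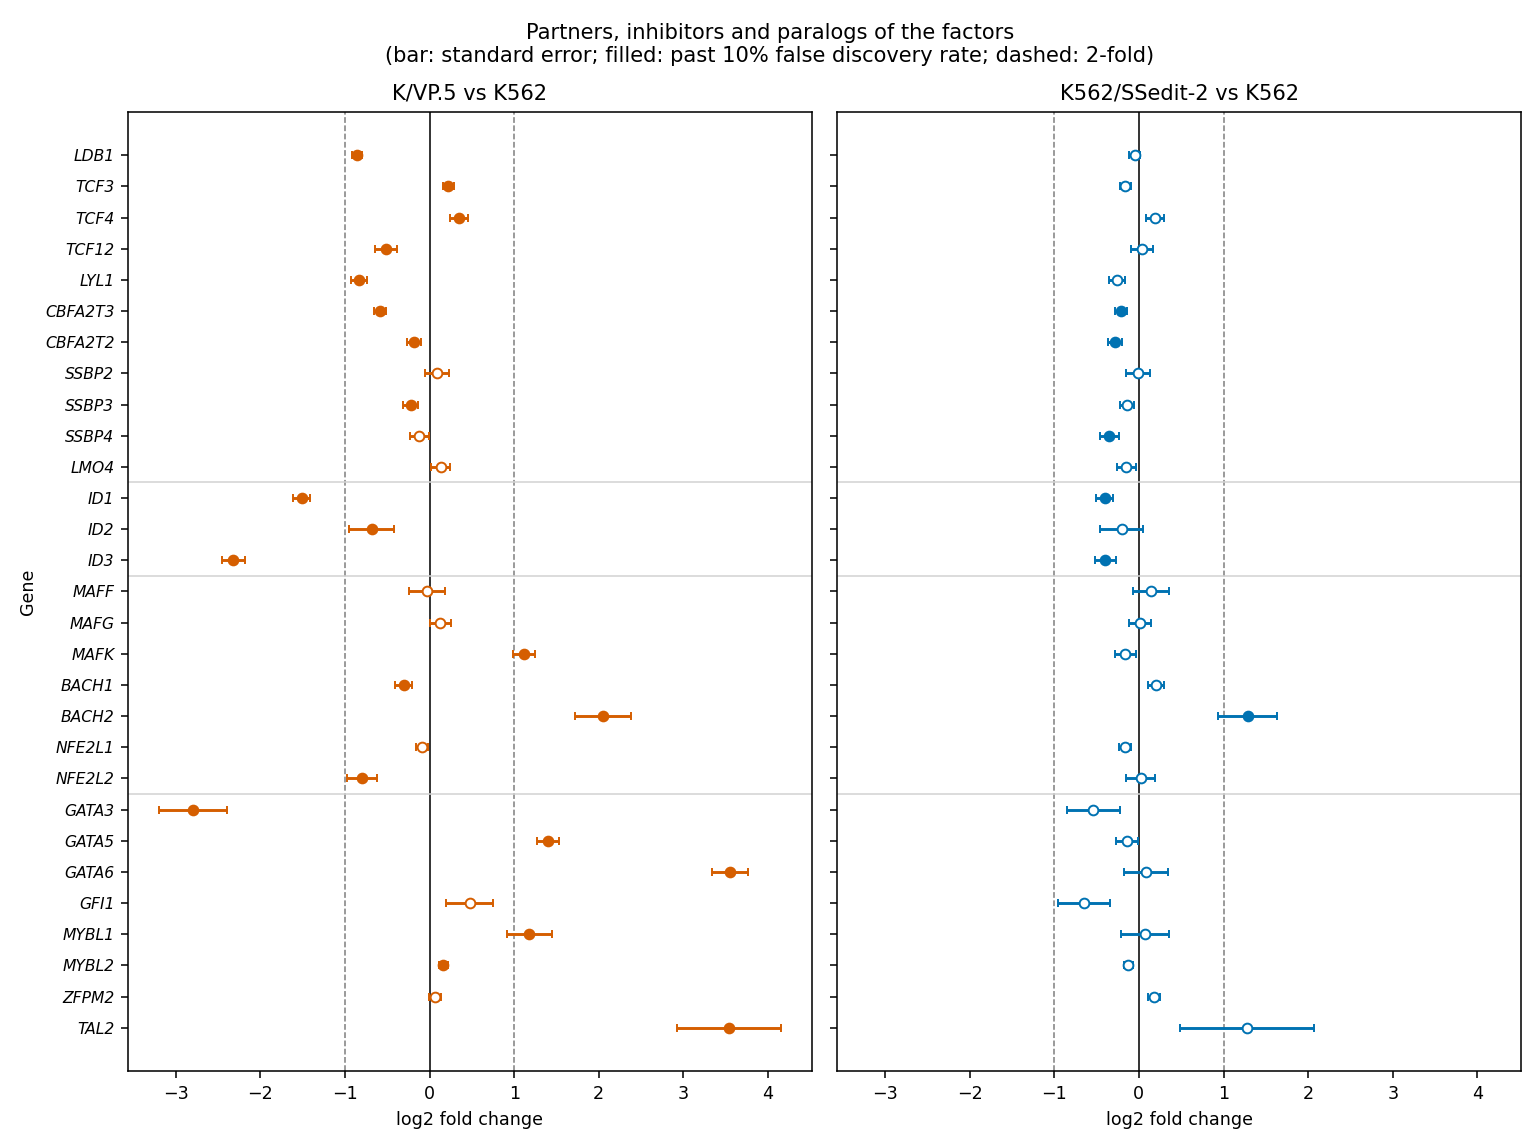
Log2 fold change against K562 (horizontal axis) of the complex partners, the ID genes, the NF-E2 partners and the paralogs of the 10 genes, in that order from the top, with standard errors and filled points past 10% false discovery rate. ID1, ID3, MAFK, BACH2, GATA5 and GATA6 are among the genes beyond 2-fold in K/VP.5, and GATA4 is left out because its K562 counts are 1, 2, 0 and 1.

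KLF1 (ENSG00000105610, chromosome 19 from 12884422 to 12887201) encodes the erythroid Krüppel-like factor of the adult beta-globin promoter. It measured 209, 235, 197 and 198 CPM in K562, 228, 226, 215 and 178 in SSedit-2 and 204, 168, 208 and 225 in K/VP.5. The ranges of all 3 lines overlapped, and no sample stood apart. The log2 fold change was -0.060 (SE 0.0961, edgeR adjusted p = 0.642) in K/VP.5 and 0.010 (SE 0.0961, edgeR adjusted p = 0.971) in SSedit-2. Some other KLF genes, which bind related GC-rich and CACCC sequences, differed between K562 and K/VP.5. KLF13 measured 19.5, 15.8, 14.02 and 12.3 CPM in K562, 13.3, 15.3, 14.4 and 13.1 in SSedit-2 and 69.2, 72.4, 72.7 and 68.3 in K/VP.5, and its K/VP.5 samples were several times those of the other lines. Its log2 fold change was 2.20 (SE 0.112, edgeR adjusted p = 1.08e-10). KLF12, a repressor, had 4, 3, 1 and 2 counts in K562 and 72, 70, 60 and 45 in K/VP.5, and it is left out of the count because K/VP.5 alone brought it to testing. KLF15 fell from 10.1 ± 1.25 to 5.15 ± 0.848 CPM. Of 11 KLF genes counted of 14 listed, 4 were higher and 3 lower in K/VP.5, against 24.6% and 27.4% of all genes, with a median of 0.18. These counts were 4 to 5 higher and 1 to 4 lower over the 21 alternatives. In SSedit-2 against K562, 1 was higher and 1 lower, against 5.05% and 8.14% of all genes. There the counts were 0 to 3 higher and 0 to 1 lower over the 21 alternatives.

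NFE2 (ENSG00000123405, chromosome 12 from 54292111 to 54301015) encodes the large subunit of NF-E2, which binds DNA as a dimer with a small MAF protein. It measured 382, 366, 356 and 336 CPM in K562, 369.7, 389, 379.6 and 357 in SSedit-2 and 179.7, 200.2, 195 and 191 in K/VP.5. The K/VP.5 samples were near 1 level and far below the rest, and the other lines overlapped. The fold change of K/VP.5 over K562 was 0.532, or -0.91 (SE 0.0603, edgeR adjusted p = 2.94e-09) on the log2 scale, and SSedit-2 exceeded K/VP.5 (log2 fold change 0.96, SE 0.0603, edgeR adjusted p = 1.45e-09). Without K/VP.5 replicate 2 this last difference was 1.00, past 2-fold. MAFK, a small MAF partner, went up in K/VP.5 while NFE2 went down, with 16.6, 24.8, 25.3 and 23.9 CPM in K562, 17.1, 20.3, 24.3 and 19.4 in SSedit-2 and 45.1, 47.1, 48.6 and 55.4 in K/VP.5. The K/VP.5 samples of MAFK were all above the rest, at a log2 fold change of 1.12 (SE 0.128, edgeR adjusted p = 2.10e-06). The related factor NFE2L2 was lower in K/VP.5 (log2 fold change -0.80, SE 0.174), and so was BACH1, a heme-sensing repressor at the same sites (log2 fold change -0.31, SE 0.0989). BACH2 rose to 1.85 ± 0.615 CPM from 0.445 ± 0.213 and was also higher in SSedit-2, at 1.08 ± 0.321 CPM (log2 fold change 1.28, SE 0.346, edgeR adjusted p = 0.0313). Of the 7 NF-E2 partners and relatives, 2 were higher and 2 lower in K/VP.5, against 24.6% and 27.4% of all genes, and the counts were 2 higher and 2 to 3 lower over the 21 alternatives. In SSedit-2 against K562, 1 was higher and 6 did not pass, against 5.05% higher and 8.14% lower of all genes. There the counts were 1 to 3 higher and 0 to 2 lower over the 21 alternatives.

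GFI1B (ENSG00000165702, chromosome 9 from 132944000 to 132991687) encodes a zinc finger repressor of erythroid and megakaryocyte cells. It measured 97.8, 71.3, 57.3 and 60.02 CPM in K562, 80.4, 76.0, 64.4 and 60.7 in SSedit-2 and 41.7, 35.8, 39.6 and 43.0 in K/VP.5. K562 replicate 1 was the highest of all samples, and every K/VP.5 sample was below the other lines. Its log2 fold change was -0.84 (SE 0.141, edgeR adjusted p = 0.000124) in K/VP.5 and -0.67 without K562 replicate 1 (edgeR adjusted p = 1.80e-05). GFI1B acts through the demethylase KDM1A and the CoREST protein RCOR1. KDM1A measured 306 ± 4.80 CPM in K562 against 305 ± 7.07 in K/VP.5, which did not pass the test there, while RCOR1 was lower in K/VP.5 (log2 fold change -0.29, SE 0.0764) and so was HMG20B (log2 fold change -0.39, SE 0.0893). Of the 6 corepressor genes, 1 was higher and 2 lower in K/VP.5, against 24.6% and 27.4% of all genes, and the counts were 1 to 2 higher and 2 lower over the 21 alternatives. In SSedit-2 against K562 the lowest edgeR adjusted p was 0.102, for KDM1A, but with replicate numbers as blocks 2 of the 6 were called lower.

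MYB (ENSG00000118513, chromosome 6 from 135181308 to 135219173) encodes the factor that sustains the growth of blood progenitors. It measured 284, 227, 219.9 and 231 CPM in K562, 221, 202, 191 and 214 in SSedit-2 and 156, 163, 154 and 144 in K/VP.5. K/VP.5 was low in all samples, and K562 replicate 1 was high. MYB thus had a log2 fold change of -0.64 (SE 0.0812, edgeR adjusted p = 6.63e-06) in K/VP.5 and -0.22 (SE 0.0809, edgeR adjusted p = 0.115) in SSedit-2. The second was -0.13 (edgeR adjusted p = 0.201) without K562 replicate 1. It crossed the threshold with replicate numbers as blocks (edgeR adjusted p = 0.0677) and without K562 replicate 3, as well as in 3 other alternatives, over a range of 0.0456 to 0.271. Of 7 genes of the progenitor state or known as targets of GATA2 or MYB that were tested of 9 listed, 3 were higher and 4 lower in K/VP.5, against 24.6% and 27.4% of all genes, and these counts held in all 21 alternatives. The cell cycle genes CCND2 and CDK6 were among the high ones, with CCND2 at 115, 105, 120.2 and 119 CPM in K562, 130.0, 135, 155 and 168 in SSedit-2 and 333, 333, 312 and 313 in K/VP.5. K/VP.5 stood well above both other lines. CDK6 measured 115 ± 15.9 CPM in K562, 106 ± 3.92 in SSedit-2 and 311 ± 10.1 in K/VP.5. Their log2 fold changes in K/VP.5 were 1.49 (SE 0.0810, edgeR adjusted p = 2.47e-10) and 1.44 (SE 0.0835, edgeR adjusted p = 5.79e-10). The receptor gene KIT, which GATA1 is known to repress, was lower in K/VP.5 (log2 fold change -1.20, SE 0.276) as was the growth factor gene ANGPT1 (log2 fold change -1.46, SE 0.0916).

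BCL11A (ENSG00000119866, chromosome 2 from 60450520 to 60554467), a repressor of the fetal globin genes, was nearly silent in K562 and SSedit-2. Its counts were 1, 3, 6 and 2 in K562, 4, 1, 1 and 4 in SSedit-2 and 67, 85, 70 and 48 in K/VP.5, where the level was 1.90 ± 0.301 CPM. Every K/VP.5 sample was above every other sample, yet the level per kilobase remained the lowest of the 10 regulators. The fitted log2 fold change of 4.58 (SE 0.362) rests on 12 counts in the 4 K562 samples together. Leaving out 1 library at a time gave values from 4.32, without K562 replicate 1, to 5.15. Among 9 other genes of globin switching, 4 were higher and 3 lower in K/VP.5, against 24.6% and 27.4% of all genes, and the counts were 3 to 5 higher and 3 to 4 lower over the 21 alternatives. SOX6, a partner of BCL11A, measured 10.2, 8.56, 9.88 and 10.6 CPM in K562, 9.01, 10.6, 10.8 and 12.2 in SSedit-2 and 3.15, 3.01, 3.33 and 3.56 in K/VP.5. Here K/VP.5 was the low line, with a log2 fold change of -1.59 (SE 0.119, edgeR adjusted p = 1.33e-08). ZBTB7A, which represses fetal globin apart from BCL11A, was lower in K/VP.5 (log2 fold change -0.62, SE 0.115), and HIC2, a repressor of BCL11A, was higher (log2 fold change 0.36, SE 0.0647). IGF2BP1, an RNA-binding protein of the fetal program, was called lower in SSedit-2 than in K562, at 548, 516, 576 and 575 CPM against 812, 750.4, 807 and 767, a log2 fold change of -0.50 (SE 0.0552, edgeR adjusted p = 2.05e-05).

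Genes that these factors are known to act on were counted in the same way. Of 38 erythroid target genes listed, 28 are counted. Left out are genes not tested, genes that reached testing through 1 line alone, and near copies of each other, such as HBG1 and HBG2. Of these, 20 were higher and 2 lower in SSedit-2 than in K562, against 5.05% and 8.14% of all genes. Their median log2 fold change was 0.43, against -0.013 over all genes, and the counts were 16 to 21 higher and 1 to 2 lower over the 21 alternatives (21 and 2 without K562 replicate 1, 20 and 2 with the block). In K/VP.5 against K562, 17 were higher and 4 lower, where 24.6% and 27.4% of all genes were, with a median of 0.21. Those counts were 14 to 19 higher and 4 lower over the 21 alternatives. Between SSedit-2 and K/VP.5, 9 were higher in the first and 12 in the second, against 27.4% and 26.4% of all genes.

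**Figure D4:**
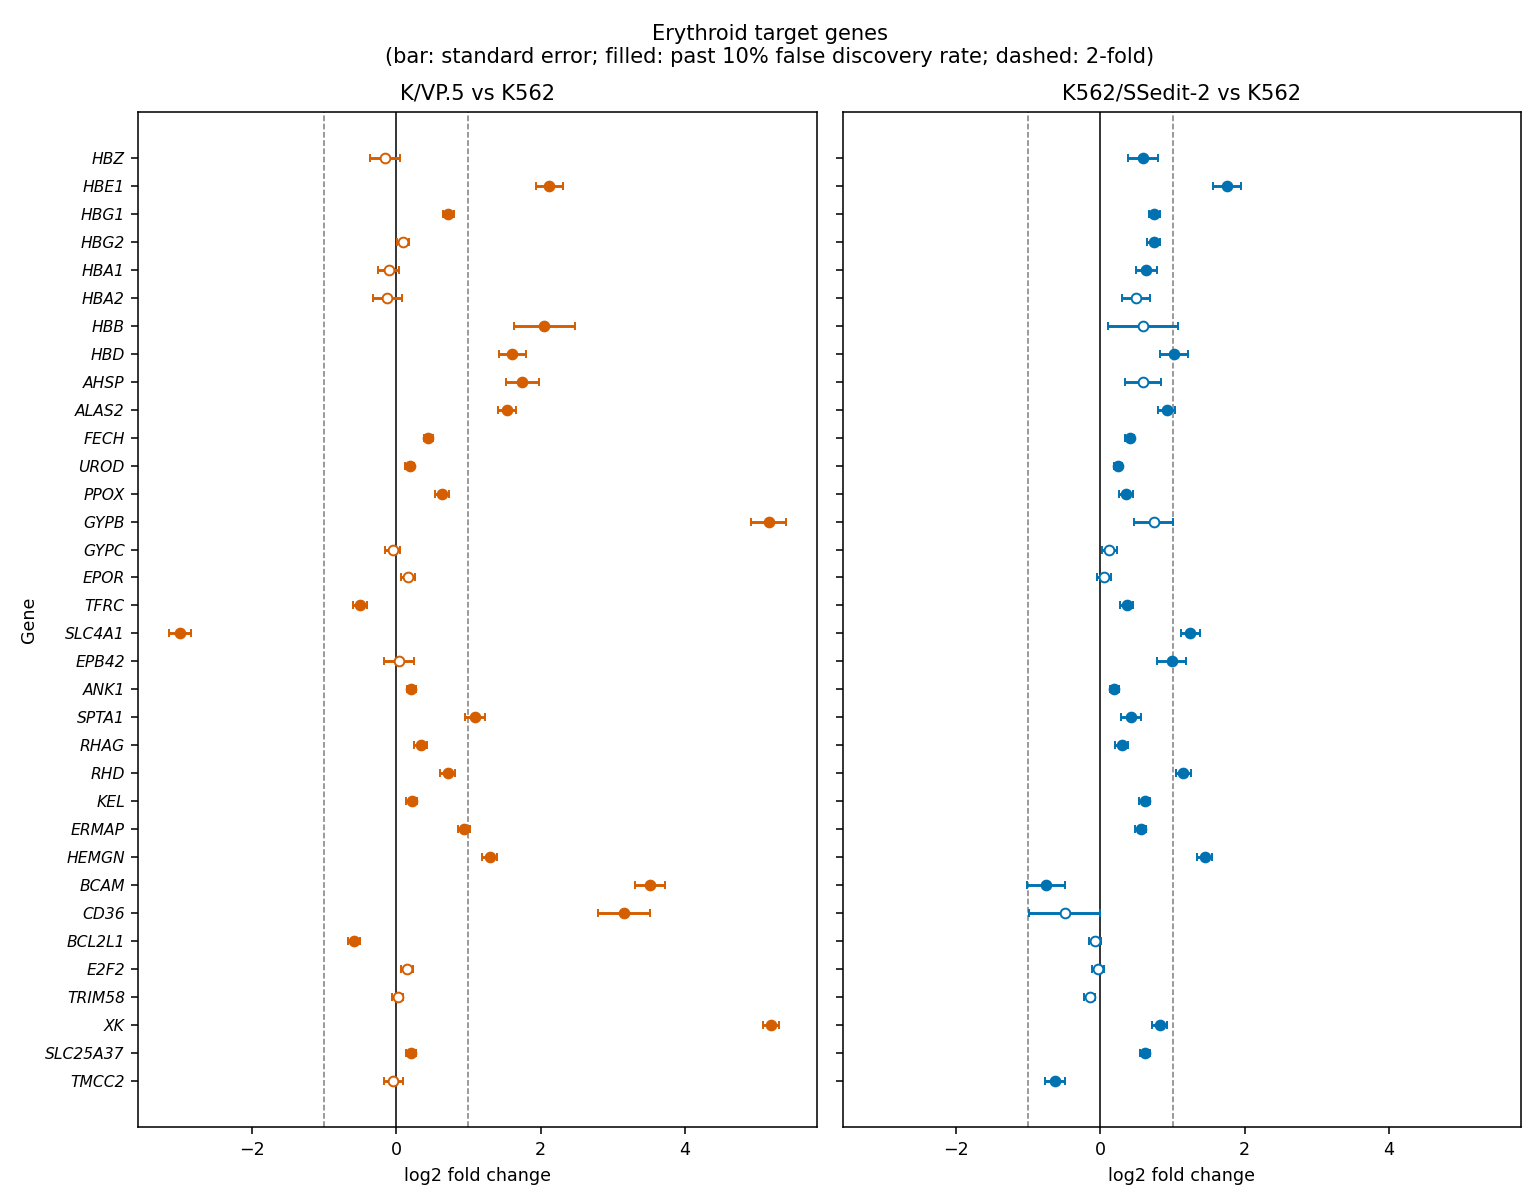
Log2 fold change against K562 (horizontal axis) of erythroid target genes tested, with standard errors and filled points past 10% false discovery rate. Most points of SSedit-2 lie between 0 and 1, whereas in K/VP.5 XK lies beyond 4 and SLC4A1 lies near -3.

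ALAS2, the erythroid enzyme of the first step of heme synthesis, measured 29.8, 29.6, 37.4 and 38.8 CPM in K562, 48.6, 61.2, 71.6 and 74.6 in SSedit-2 and 95.1, 91.2, 102 and 103 in K/VP.5. The lines did not overlap, with K562 lowest and K/VP.5 highest, and the log2 fold changes were 0.92 (SE 0.122, edgeR adjusted p = 0.000157) in SSedit-2 and 1.53 (SE 0.123, edgeR adjusted p = 3.33e-08) in K/VP.5. TFRC, the transferrin receptor, was lower in K/VP.5 (log2 fold change -0.50, SE 0.0948). TFRC was among the most abundant genes of the list, at 2659 ± 374 CPM in K562, 3419 ± 151 in SSedit-2 and 1880.1 ± 215 in K/VP.5. HEMGN, a nuclear protein and known GATA1 target, measured 46.1, 35.6, 40.7 and 45.2 CPM in K562, 96.5, 118, 107 and 136 in SSedit-2 and 109.7, 104, 104 and 93.4 in K/VP.5. Both derived lines were above K562, and they overlapped each other. Its log2 fold changes were 1.30 (SE 0.104, edgeR adjusted p = 3.01e-08) in K/VP.5 and 1.45 (SE 0.104, edgeR adjusted p = 1.99e-07) in SSedit-2.

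Among the globin genes, the embryonic gene HBE1 was low throughout, at 0.484 ± 0.0561 CPM in K562, 1.65 ± 0.343 in SSedit-2 and 2.13 ± 0.140 in K/VP.5, with log2 fold changes of 1.76 (SE 0.196, edgeR adjusted p = 2.24e-05) in SSedit-2 and 2.12 (SE 0.192, edgeR adjusted p = 1.35e-07) in K/VP.5. HBZ, the embryonic zeta-globin gene, was far more abundant, at 138 ± 35.5 CPM in K562, 208 ± 66.6 in SSedit-2 and 124 ± 23.5 in K/VP.5. It did not pass in K/VP.5 (log2 fold change -0.15, SE 0.208, edgeR adjusted p = 0.588). Its call in SSedit-2 (log2 fold change 0.59, SE 0.209, edgeR adjusted p = 0.0955) was lost in 12 of 21 alternatives, among them those without K562 replicate 2, 3 or 4, K/VP.5 replicate 1 or 3, or SSedit-2 replicate 1, 2 or 3. HBG1 and HBG2, the fetal gamma-globin genes, have nearly the same sequence, and how reads that map to both were counted is not stated, so they are given as a sum. The sum was 401, 314, 353 and 355 CPM in K562, 543, 614, 638 and 586 in SSedit-2 and 478, 414, 467 and 467 in K/VP.5. The 3 lines did not overlap, and SSedit-2 was highest. For the alpha-globin genes HBA1 and HBA2 the sum was 349.6, 278, 232 and 217 CPM in K562, 317, 455, 470.3 and 379 in SSedit-2 and 244, 230.5, 239 and 283 in K/VP.5. K562 replicate 1 was the highest of its line and overlapped SSedit-2. Adult beta-globin was scarcely present, with HBB at 0.173 ± 0.0679 CPM in K562 and 0.730 ± 0.196 in K/VP.5.

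Among proteins of the red cell membrane, some genes differed widely in K/VP.5. XK, which carries the Kx blood group antigen, measured 3.52, 2.81, 2.69 and 2.94 CPM in K562, 4.74, 4.58, 5.97 and 5.85 in SSedit-2 and 113, 105, 110.3 and 108 in K/VP.5. K/VP.5 was far above the rest and SSedit-2 lay slightly above K562, with log2 fold changes of 5.19 (SE 0.107, edgeR adjusted p = 1.96e-15) and 0.82 (SE 0.109, edgeR adjusted p = 0.000146). SLC4A1, the anion exchanger band 3, measured 24.1, 17.6, 19.9 and 21.1 CPM in K562, 41.3, 41.5, 56.9 and 56.6 in SSedit-2 and 2.15, 2.71, 2.64 and 2.91 in K/VP.5. It was lowest in K/VP.5, where XK was highest, and highest in SSedit-2, with log2 fold changes of -2.99 (SE 0.149, edgeR adjusted p = 7.76e-11) and 1.25 (SE 0.126, edgeR adjusted p = 8.80e-06). EPB42, whose protein binds band 3, was higher in SSedit-2 than in K/VP.5 (log2 fold change 0.95, SE 0.200, edgeR adjusted p = 0.000901). BCL2L1, a survival gene known as a GATA1 target, was lower in K/VP.5 (log2 fold change -0.58, SE 0.0865), and TMCC2 was lower in SSedit-2 (log2 fold change -0.63, SE 0.134).

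The regulators were also set beside the genes around them on the chromosome. Within 1 Mb of ZFPM1, 24 other genes were tested, and 20 were higher and 1 lower in K/VP.5 than in parental K562, against 26.2% and 26.1% of all tested genes, with a median log2 fold change of 0.72. ZFPM1, at -0.86, was lower than all 24. The 42 neighbours of GATA1 included 4 higher and 20 lower, against the same shares, with a median of -0.20, and 14 of them were below GATA1. NFE2 and GFI1B each had 1 neighbour with a lower value, out of 31 and 27, and the medians around them were 0.033 and 0.084.

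Some regulators share bases with genes on the opposite strand, and the strand setting of the counting and its annotation release are not stated. The antisense gene GATA2-AS1, which shares 78 exonic bases with GATA2, went the opposite way from it, with 80.9 ± 14.9 CPM in K562 and 52.0 ± 3.36 in K/VP.5, a log2 fold change of -0.64 (edgeR adjusted p = 0.000398). TAL1 shares 845 exonic bases with the antisense gene ENSG00000226252, which had 3.48 ± 1.10 CPM in K562 and rose to 6.10 ± 0.887 in K/VP.5, a difference of 0.80 (edgeR adjusted p = 0.00370) on the log2 scale. This gene was small beside TAL1 itself. ZFPM1-AS1 shares no exonic base with ZFPM1 and was lower in K/VP.5, with a log2 fold change of -1.01 (edgeR adjusted p = 0.00457). TSC1, which shares 349 exonic bases with GFI1B, measured 39.7 ± 1.94 CPM in K562 against 43.6 ± 3.75 in K/VP.5, which did not pass the test.

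Across the 12 samples, the genes with the pattern most like each regulator were ranked by Pearson r of log2 CPM among 8415 abundant protein-coding genes, a description that the differences between the lines dominate. For NFE2 these were SAMD5 (r = 0.995), PTPN7 (0.995) and FLNA (0.994). PTPN7, a phosphatase of blood cells, had mean levels of 316, 306 and 2.85 CPM in K562, SSedit-2 and K/VP.5. The genes nearest to TAL1 were SARS1 (0.978), ZNF749 (0.976) and SPTB (0.975). SPTB encodes the beta-spectrin of the red cell skeleton, and its means were 191, 307 and 509 CPM. LYL1 was among the 3 genes nearest to ZFPM1 (r = 0.976). Those nearest to LMO2 included PI4K2B (0.998) and POLR2H (0.992), and those nearest to GATA2 were POFUT2 (0.969), CISH (0.968) and PPP6R2 (0.968).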

How the data were processed

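RNA-seq with paired reads of 150 bases was made from 12 samples, 4 per line. The authors deposited counts after mapping to GRCh38 with HISAT2, that is, the number of reads that featureCounts gave each Ensembl gene, without normalization. Symbols and positions came from GENCODE 44, which held 60401 of the 60671 gene IDs. Genes were kept by filterByExpr at a minimum count of 10, scaled by TMM and fitted by line with the quasi-likelihood F test of edgeR 4.0.16 in R 4.3.3, with Benjamini-Hochberg adjustment over 18626 genes. Standard errors are the log2 fold change over the square root of F. Exact permutation tests and other steps used Python 3.11.15, scipy 1.17.1, pandas 2.3.3 and matplotlib 3.10.9.

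The members and lists were chosen with earlier results of these data known. Named are the 10 members, and from each list and comparison at most 2 genes with the largest rise and 2 with the largest fall at 10% false discovery rate and 1 CPM. Genes that overlap a member, and genes most like it in profile, were looked up and are named for some members only. Other genes named (ALAS2, CDH5, CEBPA, DCN, ELANE, GATA3, GATA5, GP1BA, GP1BB, GP9, HBA1, HBA2, HBB, HBG1, HBG2, HBZ, ID2, KRT14, KRT5, MPO, PF4, TAL2, TCF12, TFRC) were chosen after their values were seen.

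Deviations from line means were correlated across genes between samples of the same number. Pearson r was 0.415 to 0.574 for K562 and SSedit-2, and -0.396 to 0.338 for pairs with K/VP.5, so the replicate number was also fitted as a block. Other alternatives were an adjusted p of 0.05, the size factors of DESeq2 1.42.0, upper-quartile scaling, the DESeq2 Wald test, voom of limma 3.58.1, no filter, at least 1 CPM in 4 samples, only the 2 lines compared, and each library left out. List counts and named genes under these alternatives, and the rule that leaves out genes tested through 1 line, were added after the data were seen. The steps were tested on simulated data, where 97 of 100 genes changed 4-fold and 94 of 100 changed 2.8-fold were recovered. Changes under 2-fold were not simulated, so calls of that size were not tested in this way. Reads and splice junctions were not analysed.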

Additional observations from a re-analysis of the deposited data

Results flagged for a closer look

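The levels of the members and of TOP2A in each line, the GATA2 to GATA1 ratio, and the deviation of each library from its line mates were each tested for a sample far from the other 3. Of 39 such groups, 2 had one, where chance alone marks about 1 in 20 groups. K562 replicate 1 had a root mean square log2 deviation of 0.347 from the other K562 libraries, which had 0.156 to 0.180. It was the highest K562 sample for GFI1B (97.8 CPM) and MYB and the lowest for TAL1, and results without it are given in the report. K/VP.5 replicate 3 was apart on the low side, at 0.0807 against 0.142 to 0.148, which means that it lay nearest to its line mates. None of the 30 groups of 4 samples formed by the 10 members in 3 lines was marked.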

How the results depend on the processing

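Of 629 values of the members under 21 alternatives, 623 kept their side of the threshold. The sign differed in 21 values, none of them called, for GATA1, GFI1B, KLF1 and BCL11A. TAL1 in SSedit-2 against K562 lost its call in 1, and MYB in the same comparison gained one in 5. No value past the threshold reversed.

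Members called in SSedit-2 against K562 numbered 1 and became 2 with the DESeq2 Wald test, without a filter, with 1 CPM or more in 4 samples and with replicate numbers as blocks, and without K562 replicate 3, since MYB then passed (adjusted p = 0.0677 with the block). Leaving out 1 library gave 0 to 2 members there and 1352 to 3710 genes at 10% false discovery rate in place of 2356. NFE2 passed 2-fold in SSedit-2 against K/VP.5 without K/VP.5 replicate 2, and no other member but BCL11A, tested through K/VP.5 alone, passed it there when 1 library was left out. The gene count in SSedit-2 against K562 was 3710 without K562 replicate 1, 1352 without K562 replicate 2 and 1443 without SSedit-2 replicate 4. It was 1471 at an adjusted p of 0.05 and 1469 with only the 2 lines compared. The filter at 1 CPM or more in 4 samples, which tests fewer genes, gave 1923 genes past 2-fold in K/VP.5 against K562 in place of 2914, and 246 in SSedit-2 against K562 in place of 384. The cause of the other changes was not tested. Of 2411 values of other named genes, 108 lost their call and 0 reversed, most of them in SSedit-2 against K562. Depth limits BCL11A and GATA4, which had few counts in K562, and ETS1, which had few in K/VP.5.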

Other observations

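A list of megakaryocyte, myeloid and other factors, some of which compete with the erythroid regulators, was counted too. Of 9 counted of 16 listed, without CEBPA and MEIS1, which reached testing through K/VP.5 alone, 2 were higher and 5 lower in K/VP.5, against 24.6% and 27.4% of all genes (2 higher and 4 to 5 lower over the 21 alternatives). In SSedit-2 against K562, 1 was higher and 3 lower (0 to 1 higher and 2 to 5 lower over the 21 alternatives), against 5.05% and 8.14%. SPI1, which encodes PU.1 and antagonizes GATA1, measured 14.1, 9.30, 6.86 and 6.198 CPM in K562, 7.31, 6.08, 5.16 and 5.61 in SSedit-2 and 1.05, 1.01, 0.869 and 1.08 in K/VP.5. K/VP.5 was low in every sample, K562 replicate 1 was the highest of all, and the log2 fold change was -3.18 (SE 0.246, edgeR adjusted p = 2.06e-08). RUNX1, a factor of definitive blood formation, measured 60.8, 47.1, 44.7 and 41.6 CPM in K562, 53.9, 45.0, 39.0 and 38.2 in SSedit-2 and 5.60, 6.89, 6.37 and 6.34 in K/VP.5. Again all K/VP.5 samples were low, with a log2 fold change of -2.95 (SE 0.138, edgeR adjusted p = 3.65e-11). ETS1 was lower in K/VP.5 (log2 fold change -4.20, SE 0.345). Its level was 2.01 ± 0.515 CPM in K562 and 0.107 ± 0.0661 in K/VP.5, near the level of 3 counts. MEIS1, a homeobox factor of stem cells and megakaryocytes, had 0.152 ± 0.0612 CPM in K562 against 3.47 ± 0.647 in K/VP.5, while NFIB measured 1.87 ± 0.315 CPM in K562, 0.559 ± 0.144 in SSedit-2 and 15.3 ± 0.911 in K/VP.5. NFIB thus rose in K/VP.5 (log2 fold change 3.03, SE 0.147, edgeR adjusted p = 5.44e-11) and was lower in SSedit-2 (log2 fold change -1.72, SE 0.189, edgeR adjusted p = 2.01e-05).

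Markers of other cells were low or did not form a whole set. The 12 megakaryocyte markers summed to 2.94, 4.58, 4.63 and 4.79 CPM in K562, 4.604, 4.21, 4.85 and 3.998 in SSedit-2 and 4.15, 4.81, 4.29 and 4.27 in K/VP.5, with GP1BA the most abundant, 9 genes under 1 CPM in every sample and GP1BB, GP9 and PF4 at 0. The 11 myeloid markers summed to 5.61, 5.45, 4.92 and 4.21 CPM in K562, 4.32, 3.67, 2.91 and 2.92 in SSedit-2 and 4.77, 4.42, 3.56 and 4.47 in K/VP.5, with 6 under 1 CPM throughout, MPO and ELANE among them. LYZ, a lysozyme gene and the most abundant of these in K562, fell in K/VP.5 (log2 fold change -2.27, SE 0.297), whereas ITGAM, the most abundant in K/VP.5, rose (log2 fold change 1.51, SE 0.217). The 10 lymphoid markers summed to 53.6, 34.7, 29.1 and 26.1 CPM in K562, 55.4, 41.8, 39.2 and 45.0 in SSedit-2 and 10.9, 13.4, 11.5 and 10.00 in K/VP.5. Nearly all of this was CD3D, at 32.8 ± 12.4 CPM in K562, 43.1 ± 7.01 in SSedit-2 and 8.34 ± 1.71 in K/VP.5, and 8 of the 10 were under 1 CPM in every sample. The 10 markers of adherent cells summed to 238, 226, 196 and 181 CPM in K562, 235, 223, 207 and 215 in SSedit-2 and 184, 178, 188 and 186 in K/VP.5, mostly EPCAM, with CDH5 at 0 and DCN, KRT5 and KRT14 under 1 CPM. Within that list the endothelial and platelet adhesion gene PECAM1 measured 36.1, 23.2, 20.7 and 19.0 CPM in K562, 42.6, 35.5, 33.4 and 33.2 in SSedit-2 and 0.450, 0.266, 0.261 and 0.169 in K/VP.5. It was nearly absent from K/VP.5, with a log2 fold change of -6.37 (SE 0.267, edgeR adjusted p = 9.73e-12), whereas the collagen genes COL1A1 and COL1A2 were higher there, with log2 fold changes of 3.11 (SE 0.277) and 2.72 (SE 0.212). A 3rd collagen gene, COL3A1, was at 1.03 ± 0.474 CPM in K562 and 0.133 ± 0.0540 in K/VP.5. The part of these genes in the differences of the erythroid regulators was not tested.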
